A study of Mus musculus with 18 samples.

Results

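Serine synthesis and folate one-carbon enzymes were followed in mouse bone marrow-derived macrophages cultured with plasma of 4 genotypes. The rule listed 10 genes and took their rows in the deposited value table by the platform's gene symbol. It found 8 of them among 24705 named rows: Psat1, Psph, Shmt1, Shmt2, Mthfd2, Mthfd1l, Aldh1l2 and Mthfd1. No row carried the symbol Phgdh or Pycr1, so their expression was not analysed here, and they appear only among the promoter windows. The genes were selected on their enzyme function with their log2 values in the 4 plasma groups already known, so these values are given as a description, and no test of a member supports a statement here.

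The cells were grown from femoral marrow, whose genotype is not given in the labels, in medium with 30 ng/ml of M-CSF, a macrophage growth factor, and the labels give genotypes for the plasma donors alone. From day 4, 10% plasma took the place of serum, and RNA was taken 48 hours later, on day 6. All plasma donors were C57BL/6J mice on a Western diet for 8 weeks. The donors were wild type (WT, 4 arrays), ApoE-KO (ApoE, 5 arrays), ApoE-Stab1-KO (AS1, 3 arrays) and ApoE-Stab2-KO (AS2, 6 arrays). ApoE-KO mice lack apolipoprotein E, a ligand for the clearance of plasma lipoproteins, and the other knockouts lack in addition stabilin-1 or stabilin-2, scavenger receptors of sinusoidal endothelium and macrophages. The labels do not tell if the arrays of a group came from separate cultures or separate plasma, and the spread that the p-values rest on may therefore be technical.

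Serine is made from a glycolytic intermediate by the successive enzymes PHGDH, PSAT1 and PSPH. Serine hydroxymethyltransferase moves a carbon unit from serine to tetrahydrofolate, through SHMT2 in mitochondria and SHMT1 in the cytosol. In mitochondria the unit is oxidised by MTHFD2 and released as formate by MTHFD1L, or oxidised to carbon dioxide by ALDH1L2; in the cytosol MTHFD1 takes formate up again for purine and thymidylate synthesis. Many of these genes are known targets of the transcription factor ATF4, and the pathway is known for its activity in proliferating cells. In bulk RNA, a change in the share of cells that express a gene and a change in RNA per cell cannot be told apart.

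The group means of all 7 measured macrophage markers lay above the array median of 4.37 log2 units in every group. Those of the neutrophil markers given below did too, so this does not establish the identity of the cells. Csf1r, the M-CSF receptor, was 12.61 ± 0.06 (SD, n = 4) in WT and 12.22 ± 0.09 (SD, n = 5) in ApoE, and Adgre1, which encodes F4/80, was 12.56 ± 0.02 and 12.08 ± 0.06. Both levels were 12.57 ± 0.08 and 12.54 ± 0.23 (SD, n = 3) in AS1 and 12.40 ± 0.06 and 12.23 ± 0.07 (SD, n = 6) in AS2. The mean level of 13 neutrophil markers ranged from 7.61 to 7.95 in WT, 7.56 to 8.74 in ApoE, 9.50 to 9.82 in AS1 and 6.96 to 7.69 in AS2, and none of the 13 had a group mean below the array median. Mpo, a granule enzyme of early neutrophils, was 10.26 ± 0.21 in AS1 against 8.47 ± 0.50 in ApoE. The mean level of 11 proliferation markers was 5.55 to 5.93 in WT, 7.42 to 7.76 in ApoE, 7.82 to 7.99 in AS1 and 8.44 to 8.64 in AS2. With AS1 against ApoE plasma, 13 of the 13 neutrophil markers, 5 of the 11 proliferation markers and 5 of the 7 macrophage markers were higher past the threshold used below, and none was lower. With AS2 against ApoE plasma, 11 of the 11 proliferation markers were higher and 6 of the 13 neutrophil markers lower, and of the macrophage markers 2 were higher and 2 lower. With ApoE against WT plasma, 11 proliferation, 2 neutrophil and 1 macrophage marker were higher and 5 macrophage markers lower. Of 10 lymphoid, erythroid and platelet markers, 6 were below the array median in each group; 2 were higher and 1 lower with ApoE against WT, 4 higher with AS1 and 3 lower with AS2 against ApoE. The part of neutrophil markers or proliferation in the results that follow was not tested.

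Mthfd2, the mitochondrial methylenetetrahydrofolate dehydrogenase, had the widest range of the 8 genes. Its log2 levels were 5.73, 5.62, 6.16 and 6.18 with WT plasma and 9.43, 8.99, 9.51, 9.60 and 8.93 with ApoE plasma. With AS1 plasma they were 7.48, 7.42 and 8.03, and with AS2 plasma the lowest, median and highest were 8.15, 8.29 and 8.49. No array of any group overlapped another group, and the order was WT, AS1, AS2 and ApoE from lowest to highest. The ApoE mean of 9.29 ± 0.31 (SD, n = 5) lay 3.37 ± 0.16 (SE) log2 units above the WT mean of 5.92 ± 0.29 (SD, n = 4), a 10.3-fold difference. By size it had rank 3 among the 24705 rows, and rank 2 among the differences upwards.

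The AS1 mean of Mthfd2 was 7.64 ± 0.34 (SD, n = 3), 1.65 ± 0.17 (SE) log2 units or 3.14-fold below ApoE and 1.72 ± 0.18 (SE) above WT. The AS2 mean was 8.30 ± 0.12 (SD, n = 6), 0.9985 ± 0.1443 (SE) log2 units or 2.00-fold below ApoE and 2.37 ± 0.15 (SE) above WT. Both plasmas of double-knockout donors thus gave Mthfd2 levels between those with WT and ApoE plasma. AS2 lay 0.65 ± 0.17 (SE) log2 units above AS1, with a 95% interval from 0.30 to 1.01.

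Shmt2, which encodes the mitochondrial serine hydroxymethyltransferase, followed the same order of group means as Mthfd2. Its levels were 7.39, 7.58, 7.36 and 7.52 with WT, 8.70, 8.39, 9.07, 9.17 and 8.57 with ApoE, and 8.16, 7.90 and 8.25 with AS1 plasma. With AS2 plasma the lowest, median and highest were 8.51, 8.62 and 8.73. WT, AS1 and the pair of ApoE and AS2 were apart from each other, whereas all 6 AS2 arrays lay inside the ApoE range. The ApoE mean lay 1.31 ± 0.13 (SE) log2 units above WT, 2.49-fold. AS1 lay 0.68 ± 0.14 (SE) below ApoE, and AS2 0.17 ± 0.11 (SE) below it, with a 95% interval from -0.41 to 0.07.

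Mthfd1l, the mitochondrial formyltetrahydrofolate synthetase that releases formate, had another order. Its levels were 5.23, 4.99, 5.15 and 5.20 with WT plasma, 5.28, 5.37 and 5.42 with AS1, and 6.19, 6.07, 6.08, 6.24 and 5.97 with ApoE. With AS2 plasma they reached a lowest, median and highest value of 6.28, 6.48 and 6.54, above every ApoE array. No groups overlapped, and the order was WT, AS1, ApoE and AS2. ApoE lay 0.97 ± 0.06 (SE) log2 units above WT, AS1 0.75 ± 0.07 (SE) below ApoE and AS2 0.35 ± 0.06 (SE) above ApoE. AS1 lay 0.22 ± 0.07 (SE) log2 units above WT, while AS2 lay 1.31 ± 0.06 (SE) above WT.

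**Figure D1:**
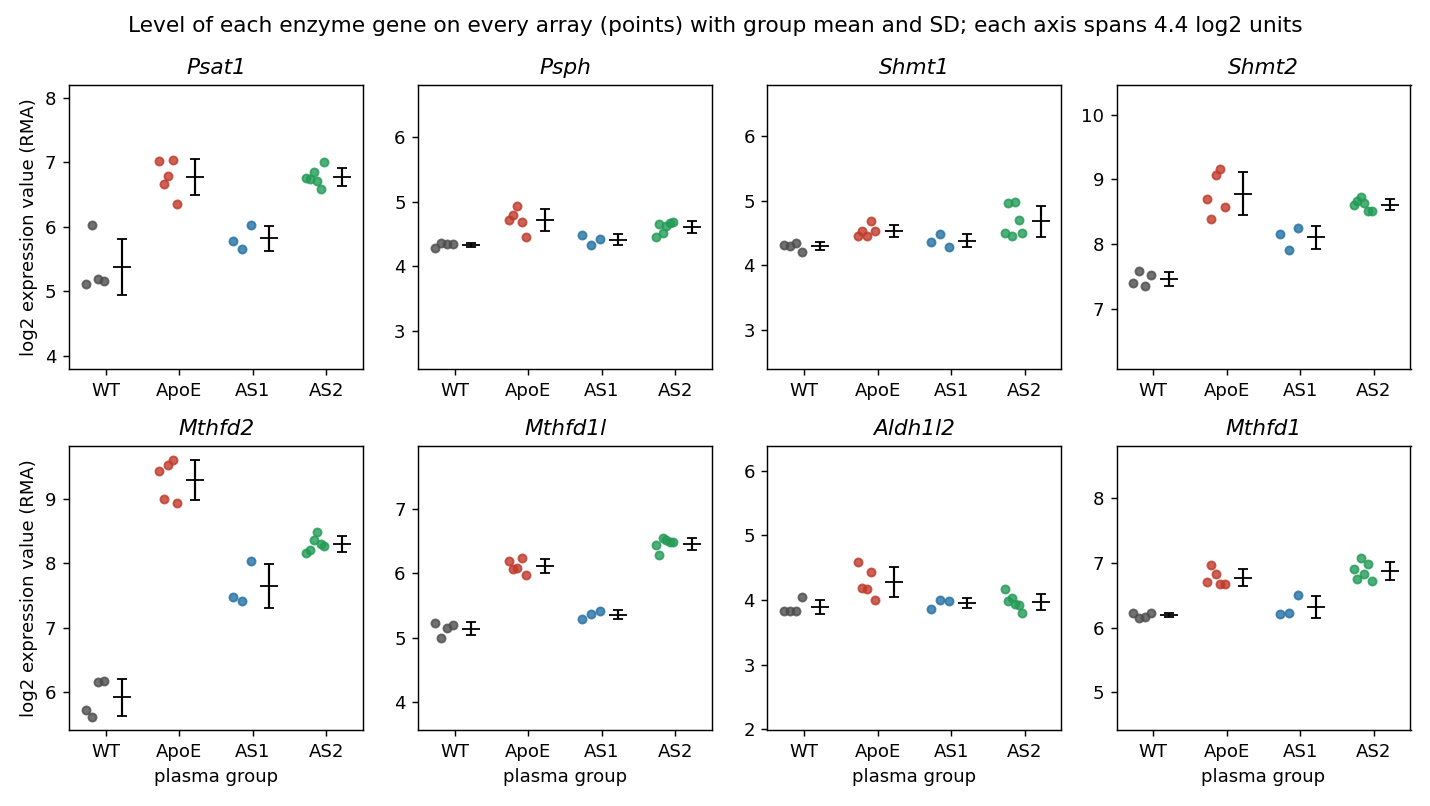
Log2 expression values (y axis, RMA) of the 8 enzyme genes by plasma group (x axis); points are arrays, and the bar and whiskers are the group mean and SD. Each y axis spans the same width. Psph, Shmt1 and Aldh1l2 lie below or near the array median, which limits what their small steps show. Mthfd2 has 4 separate groups, and Mthfd1l is highest with AS2 plasma.

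Mthfd2 and Mthfd1l, successive mitochondrial steps, therefore changed by unequal amounts within arrays. The log2 ratio of Mthfd2 to Mthfd1l was 0.78 ± 0.25 (SD, n = 4) with WT, 3.19 ± 0.23 (SD, n = 5) with ApoE, 2.29 ± 0.29 (SD, n = 3) with AS1 and 1.84 ± 0.09 (SD, n = 6) with AS2 plasma. The AS2 arrays, from 1.71 to 1.98, lay below the AS1 arrays, from 2.05 to 2.61, and these below the ApoE arrays, from 2.93 to 3.44. This ratio compares arrays with each other; its own height depends on the probes of both genes. Of the 4 groups, AS1 had Mthfd2 well above WT with Mthfd1l close to WT, and AS2 had Mthfd1l at its highest with Mthfd2 below ApoE.

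**Figure D2:**
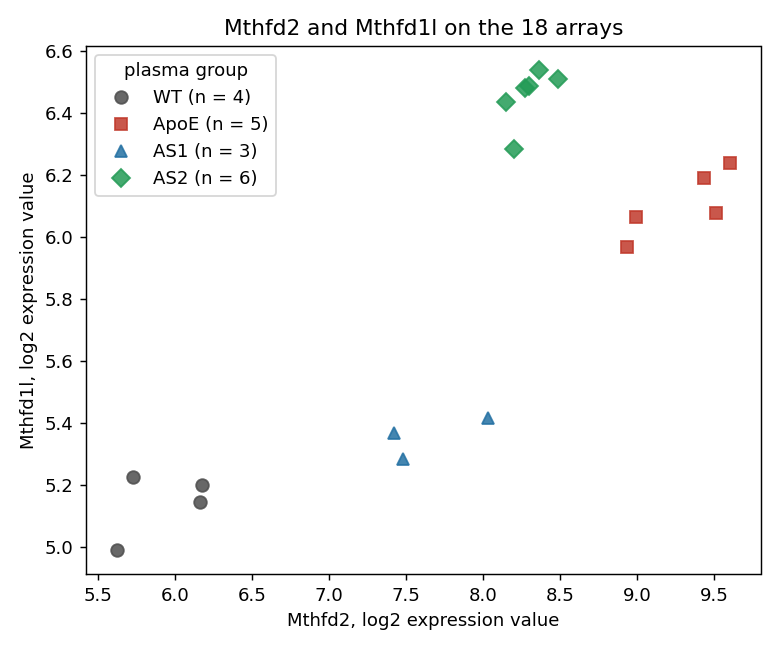
Mthfd2 (x axis) against Mthfd1l (y axis), log2 expression values, 1 point for each of the arrays of WT, ApoE, AS1 and AS2 plasma. The groups form 4 separate clouds, with the AS2 arrays above and to the left of the ApoE arrays.

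Aldh1l2, the mitochondrial formyltetrahydrofolate dehydrogenase, was near the floor of the arrays. Of its 18 values, 16 were below the array median, and 36.7% of rows had a lower mean. It was 4.28 ± 0.23 (SD, n = 5) with ApoE, 3.89 ± 0.11 (SD, n = 4) with WT, 3.95 ± 0.07 (SD, n = 3) with AS1 and 3.97 ± 0.12 (SD, n = 6) with AS2 plasma. ApoE arrays ran from 4.00 to 4.59 and WT arrays from 3.83 to 4.05, so these groups overlapped, and the WT, AS1 and AS2 groups overlapped each other. ApoE lay 0.39 ± 0.10 (SE) log2 units above WT.

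In the cytosol, Mthfd1, the trifunctional folate enzyme, was higher with ApoE and AS2 plasma than with WT and AS1 plasma on every array. It was 6.22, 6.15, 6.17 and 6.22 with WT and 6.21, 6.22 and 6.51 with AS1 plasma, which overlapped. It was 6.70, 6.97, 6.83, 6.67 and 6.68 with ApoE and 6.71, 6.87 and 7.08 (lowest, median and highest) with AS2 plasma, which also overlapped. ApoE lay 0.58 ± 0.08 (SE) log2 units above WT and AS1 0.46 ± 0.09 (SE) below ApoE. AS2 and ApoE differed by 0.11 ± 0.07 (SE), with a 95% interval from -0.05 to 0.27, and AS2 and WT by 0.69 ± 0.08 (SE).

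Shmt1, the cytosolic serine hydroxymethyltransferase, differed little between groups. Its group means ran from 4.29 ± 0.06 (SD, n = 4) with WT and 4.38 ± 0.10 (SD, n = 3) with AS1 to 4.53 ± 0.09 (SD, n = 5) with ApoE and 4.68 ± 0.24 (SD, n = 6) with AS2 plasma, and 6 of its 18 values were below the array median. The ApoE arrays, from 4.46 to 4.69, lay above the WT arrays, from 4.20 to 4.34, by a difference of means of 0.24 ± 0.10 (SE). Within AS2, 2 arrays were at 4.96 and 4.98 and the others between 4.45 and 4.70. The distance between ApoE and WT was thus 1.31 log2 units for the mitochondrial Shmt2 and 0.24 for the cytosolic Shmt1, the latter close to the floor.

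Of the serine synthesis enzymes, Psat1, the phosphoserine aminotransferase, had levels of 5.11, 6.03, 5.20 and 5.17 with WT plasma and 5.78, 5.66 and 6.02 with AS1 plasma. With ApoE plasma they were 7.02, 6.66, 6.78, 7.04 and 6.35, and with AS2 plasma 6.58, 6.74 and 6.998 (lowest, median and highest). WT replicate 2 lay above all AS1 arrays, and otherwise WT lay below AS1; ApoE and AS2 overlapped and lay above both. ApoE lay 1.39 ± 0.17 (SE) log2 units above WT, 2.63-fold, and AS1 0.95 ± 0.19 (SE) below ApoE. The ApoE and AS2 means were 6.77 ± 0.28 and 6.77 ± 0.14, and the 95% interval of their difference ran from -0.32 to 0.33. Without WT replicate 2, AS1 lay 0.66 log2 units above WT rather than 0.44.

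Psph, the phosphoserine phosphatase that completes serine synthesis, showed the order of Shmt2 in a narrower range. Its means were 4.33 ± 0.03 (SD, n = 4) with WT, 4.41 ± 0.08 (SD, n = 3) with AS1, 4.60 ± 0.09 (SD, n = 6) with AS2 and 4.71 ± 0.17 (SD, n = 5) with ApoE plasma. ApoE arrays, from 4.45 to 4.93, and AS2 arrays, from 4.46 to 4.68, lay above all WT arrays, which ran from 4.28 to 4.36; AS1, from 4.32 to 4.48, overlapped all 3 other groups. ApoE lay 0.38 ± 0.07 (SE) log2 units above WT and AS1 0.30 ± 0.08 (SE) below ApoE. Of its 18 values, 5 were below the array median.

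Between ApoE and WT, 7 of the 8 genes were higher past the threshold (limma, Benjamini-Hochberg adjusted p under 0.05 over all named rows) and Shmt1 was not past it. Of all rows, 8.54% were higher and 8.36% lower. Arrays of these groups did not overlap for 7 genes, all but Aldh1l2. Over all rows, the ApoE arrays lay wholly above the WT arrays in 7.40% and wholly below them in 6.90%. The median difference of the 8 genes was 0.77 log2 units, against -0.0036 over all rows. Nothing is read from these counts, because the genes were chosen with their values in all plasma groups known. The same holds for the member calls and counts of every comparison below, with or without arrays left out.

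Between AS1 and ApoE, 7 of the 8 genes were lower, with Shmt1 not past the threshold, beside 7.74% of all rows higher and 8.80% lower. The arrays did not overlap for Mthfd2, Mthfd1l, Mthfd1, Psat1 and Shmt2. Over all rows, the AS1 arrays lay wholly above the ApoE arrays in 9.04% and wholly below them in 9.20%. The median difference was -0.57 log2 units, against 0.0019 over all rows. Aldh1l2 passed in 16 of 28 fits and was not past without any 1 of ApoE replicates 1 and 4, of the AS1 arrays, or of several WT and AS2 arrays; its difference was -0.25 log2 units without ApoE replicate 1, against -0.33. Psph was not past the threshold without AS1 replicate 2 (-0.26 against -0.30).

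Between AS2 and ApoE, Mthfd2 and Aldh1l2 were lower and Mthfd1l was higher past the threshold, and 5 of the 8 were not past it, beside 7.59% of all rows higher and 8.02% lower. The median difference was -0.06 log2 units. Aldh1l2 was not past the threshold without ApoE replicate 1 or 4 or AS2 replicate 6 (-0.23, -0.26 and -0.27 against -0.30). Without ApoE replicate 5, Psph was lower past the threshold (-0.18 against -0.11). Without both ApoE replicates 2 and 5, which earlier results of these arrays had set apart from the other ApoE arrays, Shmt2 was lower in AS2 (-0.37 against -0.17). These comparisons share the ApoE arrays, and the genes were chosen with these values known. The calls are therefore a description, and the values are set side by side only.

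**Figure D3:**
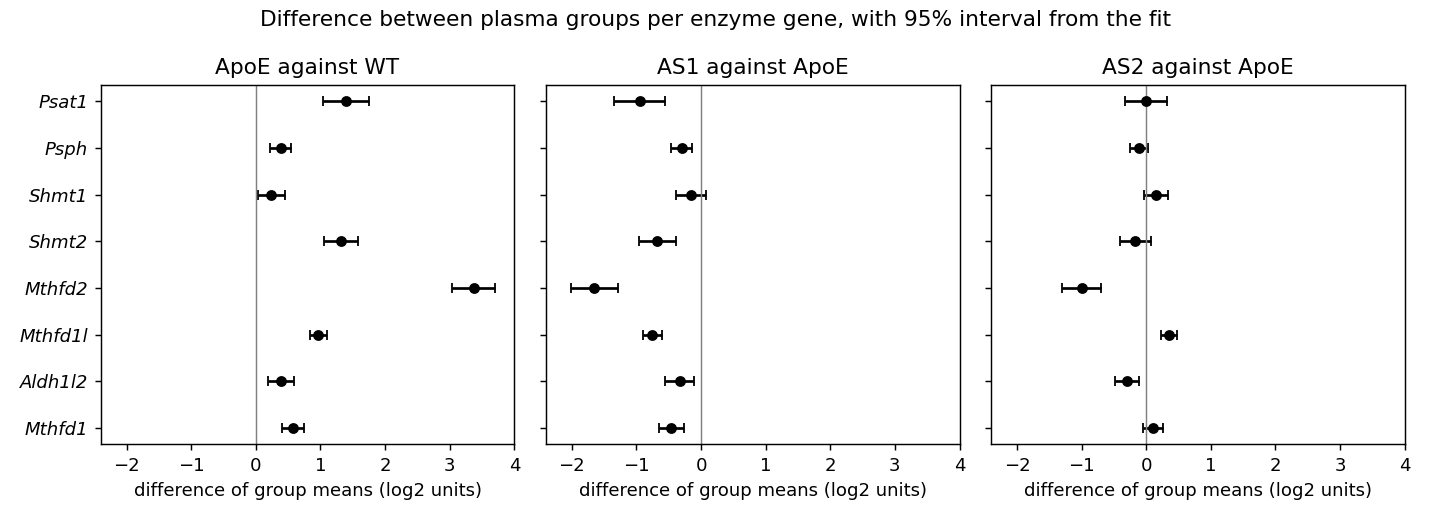
Difference of group means per gene in log2 units (x axis) in 3 panels, ApoE minus WT, AS1 minus ApoE and AS2 minus ApoE; points are differences and whiskers 95% intervals from the limma fit. The genes lie right of 0 in the first panel, at or left of 0 in the second and on both sides in the third.

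Set against WT, the difference was smaller with AS1 than with AS2 plasma for each of the 8 genes, though the arrays of WT are shared by both. Between AS1 and WT, Mthfd2 and Shmt2 were higher past the threshold and 6 genes were not past it, beside 4.84% of all rows higher and 4.64% lower; without AS1 replicate 3, 1 gene, Mthfd2, was past it. Between AS2 and WT, 7 genes were higher, all but Aldh1l2, beside 8.65% of all rows higher and 9.20% lower. Between AS2 and AS1, 6 genes were higher, beside 11.5% of all rows higher and 10.6% lower, with Mthfd1l the farthest apart at 1.10 ± 0.07 (SE) log2 units. Aldh1l2 and Psph were not past the threshold in that comparison, and without AS1 replicate 2 the count was 3 genes, as Mthfd2, Shmt1 and Shmt2 were no longer past it. Mthfd2 was also not past it without AS1 replicate 1 (0.57 against 0.65), and Shmt1 passed in 12 of 29 fits. The proliferation marker Mki67 was 8.03 ± 0.10 with WT, 10.16 ± 0.17 with ApoE, 10.55 ± 0.04 with AS1 and 10.66 ± 0.05 with AS2 plasma, and its part in these differences was not tested.

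Within groups, single arrays were lowest or highest for several of the genes. ApoE replicate 5 had the lowest ApoE value of 5 of the 8 genes and ApoE replicate 4 the highest of 5. AS1 replicate 3 had the highest AS1 value of 5 genes and AS1 replicate 2 the lowest of 4, in a group of only 3 arrays. In WT and AS2 no array was the lowest or the highest for more than 3 genes. With ApoE replicates 2 and 5 left out, ApoE lay 3.59 log2 units above WT for Mthfd2, 1.57 for Psat1, 1.52 for Shmt2 and 1.03 for Mthfd1l. AS2 then lay 1.22 log2 units below ApoE for Mthfd2 and 0.29 above ApoE for Mthfd1l. All of these differences kept their direction.

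Promoter windows are shown for Mthfd2 and Mthfd1l, because their order between ApoE and AS2 differs, and for Psat1, the serine synthesis gene farthest apart between ApoE and WT. RefSeq windows on build GRCm38.p6 were matched for 9 of the 10 genes, with 2 starts for Psat1; Aldh1l2 had none. Printed are the 250 bases before the start on the gene's strand, with CCAAT, or its reverse complement ATTGG, in capitals. The Mthfd2 window lies at chr6:83317605-83317854, minus strand, the Mthfd1l window at chr10:3972825-3973074, plus strand and the first Psat1 window at chr19:15925060-15925309, minus strand.
Mthfd2: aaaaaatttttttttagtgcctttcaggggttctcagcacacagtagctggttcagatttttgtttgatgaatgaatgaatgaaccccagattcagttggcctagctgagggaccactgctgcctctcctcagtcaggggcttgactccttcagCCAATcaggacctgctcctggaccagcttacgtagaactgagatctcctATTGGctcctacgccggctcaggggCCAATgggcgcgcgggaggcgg
Mthfd1l: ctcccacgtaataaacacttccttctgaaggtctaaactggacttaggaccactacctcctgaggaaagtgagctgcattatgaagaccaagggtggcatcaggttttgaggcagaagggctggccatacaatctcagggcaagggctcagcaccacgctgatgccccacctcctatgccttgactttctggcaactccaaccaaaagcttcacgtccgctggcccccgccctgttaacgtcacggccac
Psat1: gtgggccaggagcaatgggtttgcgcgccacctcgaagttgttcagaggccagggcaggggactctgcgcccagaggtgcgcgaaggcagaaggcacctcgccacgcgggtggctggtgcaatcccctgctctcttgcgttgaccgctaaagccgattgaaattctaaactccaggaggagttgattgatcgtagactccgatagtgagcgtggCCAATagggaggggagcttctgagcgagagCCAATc
The letters CCAAT, the core of the box bound by the factor NF-Y, were searched on both strands after the windows had been read. They are found at 3 places in the Mthfd2 window, which begin 96, 47 and 22 bases before the start, at 2 in this Psat1 window, 36 and 6 bases before it, and at none in the Mthfd1l window. Of 10 windows of the genes, 7 hold CCAAT in these 250 bases, and 33.8% of 32851 windows of all genes do. The letters TGATGNAA, the core of the composite element of C/EBP and ATF factors, were searched on both strands in the same 250 bases. They are in 1 of the 10 windows, that of Pycr1, where they do not overlap CCAAT, and in 3.45% of all windows. A match is a description of letters, and a window without one says nothing about a factor.

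Nearness to Mthfd2 was the root mean square distance of row-centred log2 values over the 18 arrays. The size of changes thus counts as well as their order. Ranks by this distance are over all rows with a gene symbol. Members and predicted genes (Gm and Rik symbols) were passed over, and the 5 nearest rows that remained were named. They were Asns, asparagine synthetase, at 0.24 log2 units, the cationic amino acid transporter gene Slc7a1 at 0.39, the amino acid transporter gene Slc7a5 at 0.44, Aldh18a1, which encodes the first enzyme of proline synthesis from glutamate, at 0.47, and the aminopeptidase gene Anpep at 0.53. The nearest of the other 7 enzyme genes were Shmt2 at 0.75 (rank 24 among the rows) and Psat1 at 0.76 (rank 28), and Mthfd1l had rank 93 at 0.88. Aldh18a1 was 4.79 ± 0.17 (SD, n = 4) with WT, 6.93 ± 0.33 (SD, n = 5) with ApoE, 5.51 ± 0.15 (SD, n = 3) with AS1 and 6.32 ± 0.10 (SD, n = 6) with AS2 plasma. Its AS2 arrays, up to 6.47, overlapped the ApoE arrays, which began at 6.47, and the other groups were apart. The mean of Slc7a5 was higher with AS1 (6.86) than with AS2 plasma (6.66), with overlapping arrays, unlike Mthfd2. The other named rows had higher means with AS2 than with AS1, like Mthfd2. All of these rows were chosen by their values, which are a description.

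Genes of the pathways around the members were read from 7 lists, of which 60 of 68 genes had a row. The lists were chosen with earlier results of these data known. With ApoE against WT plasma, 23 rose, 6 fell and 31 did not pass the test (limma, adjusted p under 0.05 over all rows), against the 8.54% and 8.36% of all rows given above. With AS1 against ApoE, 2 rose and 24 fell, beside 7.74% of all rows higher and 8.80% lower. With AS2 against ApoE, 15 rose and 15 fell, beside 7.59% of all rows higher and 8.02% lower. Their median differences were 0.10, -0.11 and 0.0025 log2 units. The counts of each list below are to be set beside these same shares of all rows. Nothing particular to a list is read where its counts lie near them.

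Of the other folate enzymes and carriers, 14 genes were measured. Between ApoE and WT, 3 rose and 2 fell: Tyms, thymidylate synthase, rose by 0.70 ± 0.15 (SE) log2 units (limma adjusted p = 0.00198), the folate receptor gene Folr2 fell by 0.49 ± 0.10 (adjusted p = 0.00127) and the proton-coupled folate transporter gene Slc46a1 fell by 0.45 ± 0.12 (adjusted p = 0.0123). Between AS1 and ApoE 1 rose and 2 fell: Folr2 rose by 0.40 ± 0.11 (SE), Mtrr, methionine synthase reductase, fell by 0.67 ± 0.11 and the mitochondrial folate carrier gene Slc25a32 by 0.34 ± 0.08 (limma adjusted p = 0.0126, 3.02e-04 and 0.00702). Between AS2 and ApoE 3 rose and 1 fell, among them Folr2 with a rise of 1.24 ± 0.09 (SE), Tyms with a rise of 0.69 ± 0.13 and Mtrr with a fall of 0.38 ± 0.09 (limma adjusted p = 1.98e-08, 9.78e-04 and 0.00626). Mthfd2l, the paralogue of Mthfd2, was 5.87 ± 0.31 (SD, n = 5) with ApoE and 5.54 ± 0.28 (SD, n = 4) with WT plasma, and did not pass (limma adjusted p = 0.15), but did without WT replicate 4 (0.44 log2 units, adjusted p = 0.0419). Without WT replicate 3 or 4, the call of Slc46a1 was lost (limma adjusted p = 0.0536 and 0.05), and without AS1 replicate 3 that of Folr2 in AS1 (adjusted p = 0.0635). Between AS2 and ApoE, Slc25a32 passed without ApoE replicate 5 (-0.2170, limma adjusted p = 0.03985). In that comparison Slc46a1 passed without WT replicate 2 (0.2544, limma adjusted p = 0.03806).

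Of 6 genes of purine synthesis, a pathway that uses formyl groups of folate, 4 rose with ApoE against WT plasma, 4 fell with AS1 against ApoE, and 3 rose with AS2 against ApoE. Ppat, the first enzyme of the pathway, rose by 0.54 ± 0.14 (SE) log2 units, fell by 0.86 ± 0.15 and rose by 0.47 ± 0.12 in the 3 comparisons in that order (limma adjusted p = 0.00895, 4.89e-04 and 0.0113). Atic, the bifunctional last enzyme, rose by 0.43 ± 0.07 (SE), fell by 0.74 ± 0.08 and rose by 0.40 ± 0.07 (limma adjusted p = 3.15e-04, 6.46e-06 and 2.07e-04). Like Mthfd1l, both genes were thus higher with AS2 than with ApoE plasma. Gart rose by 0.35 ± 0.11 (SE) with ApoE plasma (limma adjusted p = 0.0304), and its call was lost without ApoE replicate 2, 3 or 4 or WT replicate 1, 2 or 3 (adjusted p from 0.0567 to 0.0915). Adsl fell by 0.63 ± 0.10 (SE) in AS1 (limma adjusted p = 2.49e-04) and Pfas rose by 0.21 ± 0.06 in AS2 (adjusted p = 0.0274). The Pfas call was lost without ApoE replicate 1, 3 or 4 or AS2 replicate 4 or 5 (limma adjusted p from 0.0528 to 0.0788).

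Of 4 glycine cleavage genes, Dld, the dihydrolipoamide dehydrogenase, rose by 0.53 ± 0.09 (SE) with ApoE and fell by 0.53 ± 0.09 with AS1 against ApoE plasma (limma adjusted p = 2.11e-04 and 5.23e-04), and the other 3 did not pass. Of these 3, Gldc lay below the array median in each group (3.97 with WT and 3.89 with ApoE plasma). Amt lay near it (4.59 and 4.53), so little can be read from either gene. With AS2 against ApoE plasma Gcsh, the carrier protein gene, rose by 0.43 ± 0.12 (limma adjusted p = 0.0204), a call lost without ApoE replicate 2 or 5 (adjusted p = 0.053 and 0.0523). Dld lay lower in AS2 past the threshold without ApoE replicate 5 (-0.23, limma adjusted p = 0.0304). Gcsh was higher with ApoE than WT plasma past the threshold without AS1 replicate 3 (0.33, limma adjusted p = 0.039). It also passed in the fit of these 2 groups alone (limma adjusted p = 0.0498).

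Of 10 methionine cycle and transsulfuration genes, 2 rose and 1 fell with ApoE against WT plasma, 3 fell with AS1 and 1 rose and 1 fell with AS2 against ApoE. The 2 that rose were Ahcyl1 and Ahcyl2. Ahcy, which encodes adenosylhomocysteinase itself, did not pass in any of the 3 comparisons. It lay below the array median, at 4.10 with ApoE and 4.11 with WT plasma, and Mat2a had no row. Ahcyl1, a paralogue of adenosylhomocysteinase, rose by 0.55 ± 0.08 (SE), fell by 0.58 ± 0.09 and fell by 0.41 ± 0.07 in the 3 comparisons (limma adjusted p = 6.92e-05, 1.45e-04 and 4.41e-04). Mat2b, the regulatory subunit of methionine adenosyltransferase, fell by 0.28 ± 0.05 (SE) with ApoE and rose by 0.27 ± 0.04 with AS2 against ApoE plasma (limma adjusted p = 5.19e-04 and 2.59e-04). Mtap, the methylthioadenosine phosphorylase, fell by 0.71 ± 0.10 (SE) in AS1 (limma adjusted p = 8.77e-05). Ahcyl2 rose by 0.25 ± 0.08 (SE) with ApoE and fell by 0.44 ± 0.08 with AS1 plasma (limma adjusted p = 0.033 and 0.00117); the rise was lost without ApoE replicate 1 or 2 or WT replicate 3 or 4 (adjusted p from 0.0775 to 0.123). Mtap passed between ApoE and WT without ApoE replicate 5 (0.32, limma adjusted p = 0.00681).

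Of 8 serine transport and breakdown genes, 2 rose and 1 fell with ApoE plasma, 3 fell with AS1 and 2 rose and 2 fell with AS2 against ApoE. Sfxn1, a mitochondrial serine carrier, rose by 0.68 ± 0.10 (SE) and Slc1a4, a neutral amino acid transporter that carries serine, by 0.59 ± 0.08 with ApoE plasma, while Sfxn3 fell by 0.40 ± 0.08 (limma adjusted p = 4.49e-05, 4.28e-05 and 0.00189). With AS1 against ApoE, Slc1a5, Slc1a4 and Sfxn1 fell by 0.50 ± 0.15 (SE), 0.46 ± 0.09 and 0.35 ± 0.10 (limma adjusted p = 0.0309, 0.00125 and 0.0282). With AS2 against ApoE, Sfxn3 rose by 0.75 ± 0.07 (SE) and Slc1a5, the glutamine transporter, by 0.65 ± 0.13, and Slc1a4 fell by 0.41 ± 0.07 (limma adjusted p = 8.77e-07, 0.00113 and 5.19e-04). Slc1a4 was near the floor: its means with WT, AS1 and AS2 plasma (4.09, 4.22 and 4.26) were below the array median, and that with ApoE was 4.68. The AS1 call of Slc1a5 was lost without AS1 replicate 2 or 3 or ApoE replicate 1, 3 or 4 (limma adjusted p from 0.0562 to 0.215), and that of Sfxn1 without AS1 replicate 1 or 2 or ApoE replicate 3 (adjusted p = 0.0884, 0.166 and 0.0677).

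Of 9 proline and glutamate genes, 3 rose and 2 fell with ApoE, 1 rose and 3 fell with AS1 against ApoE, and 4 rose and 3 fell with AS2 against ApoE. Aldh18a1 rose by 2.14 ± 0.13 (SE), fell by 1.41 ± 0.14 and fell by 0.61 ± 0.12 in the 3 comparisons (limma adjusted p = 4.64e-09, 3.73e-06 and 0.00105). Got1, the cytosolic aspartate aminotransferase, rose by 0.85 ± 0.08 (SE), fell by 0.43 ± 0.09 and fell by 1.14 ± 0.08 (limma adjusted p = 9.72e-07, 0.00262 and 8.08e-09). Glul, glutamine synthetase, fell by 0.48 ± 0.06 (SE) with ApoE and rose by 0.54 ± 0.05 with AS2 against ApoE plasma (limma adjusted p = 1.19e-05 and 7.98e-07). Oat, ornithine aminotransferase, fell by 0.56 ± 0.07 (SE) with AS1 against ApoE (limma adjusted p = 2.41e-05).

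Of 9 amino acid response genes, 8 rose with ApoE plasma, 8 fell with AS1 against ApoE and 8 fell with AS2 against ApoE; Sesn2 was the one that did not pass in the first and second of these. The list was known to move in these arrays, so its counts are not independent of earlier results. Asns rose by 3.60 ± 0.19 (SE), Nupr1 by 1.93 ± 0.20 and Ddit3, which encodes the stress factor CHOP, by 1.86 ± 0.12 with ApoE plasma (limma adjusted p = 7.18e-10, 1.84e-06 and 1.08e-08). With AS1 against ApoE they fell by 2.10 ± 0.21 (SE), 1.91 ± 0.22 and 1.51 ± 0.13 (limma adjusted p = 3.08e-06, 1.16e-05 and 1.37e-06), and with AS2 against ApoE by 1.25 ± 0.17, 1.24 ± 0.18 and 1.71 ± 0.11 (adjusted p = 3.41e-05, 7.10e-05 and 6.74e-09). Atf4 itself was 9.09 ± 0.19 (SD, n = 5) with ApoE, 8.13 ± 0.20 (SD, n = 3) with AS1, 8.21 ± 0.12 (SD, n = 6) with AS2 and 7.61 ± 0.09 (SD, n = 4) with WT plasma. Myc, a growth-promoting transcription factor, was the gene of this list that was higher with AS2 than with ApoE plasma, at 7.87 against 7.55 (limma adjusted p = 0.0294). That call was lost without ApoE replicate 1, 4 or 5 or AS2 replicate 3, 4, 5 or 6 (limma adjusted p from 0.0563 to 0.0884) and in the fit blocked on replicate number (limma adjusted p = 0.104). Myc, Atf4, Sesn2 and Mthfd2l were named after their values were seen. Set beside these, Mthfd2 was lower with AS2 than with ApoE plasma, like 8 of the 9 genes, Mthfd1l was higher, and the intervals of Psat1, Shmt2 and Mthfd1 between AS2 and ApoE included 0.

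**Figure D4:**
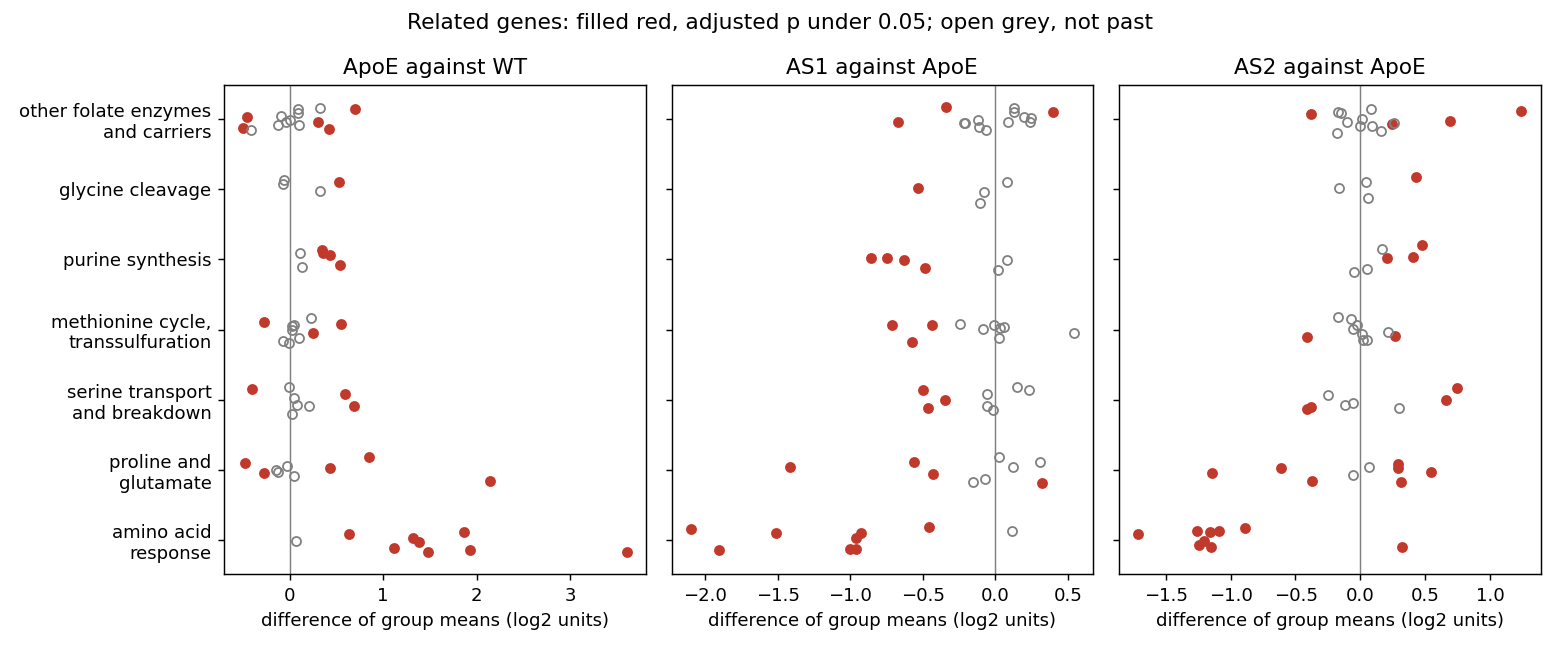
Difference of group means in log2 units (x axis) of the 60 related genes in 7 lists (y axis) in 3 panels, ApoE minus WT, AS1 minus ApoE and AS2 minus ApoE; filled points passed adjusted p under 0.05 and open points did not. Of the 9 amino acid response genes, the 8 that passed in the first panel lie right of 0 and the 8 that passed in the second lie left of 0; the purine synthesis genes that passed lie right, left and right of 0 in the 3 panels.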

How the data were processed

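Expression was measured on Affymetrix arrays of mouse macrophages, 18 in all. The deposited values are log2 expression values made by the authors with RMA, per the submitters' processing notes; RMA corrects background, makes array distributions equal and merges probes. Neither its version nor its probe definition was given in the sources used here. Of 25428 rows, the platform annotation gave 24705 exactly 1 gene symbol; the other 723 stayed unnamed. Sorted values were the same on 17 arrays and within 0.0019 on ApoE replicate 1. Arrays have no read depth; their number limits the precision.

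With limma 3.58.1 in R 4.3.3, 1 linear model with 4 group means was fitted to all named rows (14 residual degrees of freedom, lmFit and eBayes). Tests were two-sided, Benjamini-Hochberg adjusted over rows, with a threshold of 0.05. Means have SDs over arrays, differences SEs and 95% intervals from the fit. The script was tested on simulated data. Members and lists were chosen with earlier results of these data known. All members were named. From each related list the rule named up to 3 genes past the threshold with the largest difference per main comparison. It also named the 5 rows nearest to Mthfd2, with predicted genes passed over. Alternatives changed the rows tested, the normalization or the variance model, weighted arrays, fitted only both compared groups, blocked on replicate number, or left arrays out. CCAAT was added after seeing the windows. Promoter windows are RefSeq's, on GRCm38.p6. Protein sequences were not used here.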

Additional observations from a re-analysis of the deposited data

Results flagged for a closer look

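In 117 groups of at least 4 arrays (39 genes), the highest or lowest array of 8 lay far from the others by Dixon's gap criterion, which chance meets in about 1 in 20 groups. Psat1 was 6.03 in WT replicate 2, where the next WT array had 5.20. Aldh1l2 was 4.05 in WT replicate 4, with the next at 3.84. In ApoE replicate 5, Mtrr was 6.47 (next 6.78) and Mtap 7.46 (next 7.84). In AS2 replicate 4, Ahcyl1 was 10.01 (next 9.80) and Sfxn1 8.66 (next 8.32). Oat was 8.70 in WT replicate 2 (next 8.84), and Asns was 8.60 in AS2 replicate 3 (next 8.45). All values are log2 levels.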

How the results depend on the processing

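Differences of the members and of 31 named related genes, and the counts past the threshold, were recomputed under 28 alternatives (27 where a filter dropped the gene), and no called one of these differences changed direction; marker counts, the ratio of Mthfd2 to Mthfd1l and the distances to Mthfd2 were not recomputed. The count of windows with TGATGNAA had 1 alternative, the 250 bases before the start, and was 1 in both. Counts of rows, related genes and members past the threshold stayed within 1.5 times their value, except 2 counts of members: between AS1 and WT it was 2 and ranged from 1 to 3 with single arrays left out (1 without AS1 replicate 3), and between AS2 and AS1 it was 6 and ranged from 3 to 6 (3 without AS1 replicate 2). With single arrays left out, the other counts of members were 7 to 7 (ApoE against WT), 5 to 7 (AS1 against ApoE), 2 to 4 (AS2 against ApoE) and 7 to 7 (AS2 against WT). The filter on row means (lowest 40% left out) dropped Aldh1l2. Of 93 differences of named related genes (those of Myc, Atf4, Sesn2 and Mthfd2l added after seeing the data), 11 lost their call under some alternative (adjusted p from 0.05 to 0.215) and 6 gained one. Fitting the 2 compared groups alone also ended the call of Aldh1l2 between AS1 and ApoE and between AS2 and ApoE, and of Psph between AS1 and ApoE. In the 6 comparisons, correlations of the deviations of same-numbered arrays ran from -0.207 to 0.133. Above the limit of 0.1 set for pairing were 1 pair in AS1 against ApoE, 2 in AS2 against ApoE and 1 in AS2 against WT. The labels do not say if the numbers pair arrays, and weak correlations of few arrays cannot decide it. The replicate block changed 1 call of a member, that of Shmt1 between AS2 and AS1 (0.31 log2 units, not past; 5 members then passed), and 1 of a named related gene, that of Myc between AS2 and ApoE (0.30 log2 units, adjusted p = 0.104). Rows below or near the array median (Psph, Shmt1, Aldh1l2 and, of the named related genes, Slc1a4) limit what small differences show.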
